A study of Homo sapiens and Rattus norvegicus with 26 samples.

Results

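The genes for the proteins of the cytosolic ribosome were examined in 4 in vitro models of brain endothelium that had been cultured under high or low shear stress. The members were chosen by symbol alone: every gene named RPL or RPS with a number, allowing the endings A, L and X used for paralogs and copies, together with the stalk genes RPLP0, RPLP1 and RPLP2 and the laminin receptor gene RPSA. This gave 84 of the 43382 genes with values in the human tables and 94 of the 33289 in the rat table, with 79 symbols in common. Polyadenylated RNA of 26 cultures had been sequenced. In each model a culture kept at 12 dyne/cm2 was paired with a culture kept at low shear for 72 hours, and the deposited design text gives 0.1 dyne/cm2 for low shear whereas the methods of the study give a higher value. There were 3 pairs each of hECs, hCECs and hBMEC-like cells and 4 pairs of rBMECs. All 3 human models were differentiated from the single iPSC line IMR90-4: hECs and hCECs came from sorted endothelial progenitors, the hCECs (CNS-like endothelial cells) being cultured with the Wnt-activating compound CHIR99021 and the hECs with its solvent DMSO, both in FGF2 and VEGF, while hBMEC-like cells were made by a separate protocol with retinoic acid. The rBMECs were grown from brain microvessels of male Sprague-Dawley rats, pooled where several brains were needed, in medium with serum and puromycin. A human replicate was a separate differentiation of the same line and a rat replicate a culture pair with its own number in the labels, so the human p-values do not cover variation between people. The study describes fewer rat isolations than the 4 pairs deposited, and which pairs share an isolation is not given in the sources used here. The rat p-values may thus rest on fewer independent isolations than pairs.

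Ribosomal proteins assemble with ribosomal RNA into a small subunit (RPS genes), which reads the mRNA, and a large subunit (RPL genes), which forms the peptide bond. Their mRNAs are among the most abundant polyadenylated RNAs of almost every cell, endothelium included. Most of them begin with a terminal oligopyrimidine (TOP) tract, a cytosine at the first transcribed base followed by an unbroken run of C and T, through which the kinase complex mTORC1 and the RNA-binding protein LARP1 regulate their translation and stability together.

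That shared feature was visible in the reference sequence of the human members. RefSeq start sites on GRCh38.p14 were at hand for 67 of the 84 members, and 43 of the 67 (64.2%) began with C and at least 5 unbroken pyrimidines on the transcribed strand, against 4.04% of the 27303 promoters in the same table. The windows below hold 5 bases before the start and 15 from it, 5′ to 3′, for members on which the results turn, with capitals marking the pyrimidine run from the first transcribed base. The first group holds genes with large changes under shear or named roles, and RPS6 and RPS25 belong to the small subunit.
RPL31: gcgctCTTCCTTTCCaactt
RPL36: ccagcCCTTCCgccacggcc
RPL41: cctttCTCTCggccttagcg
RPS25: gcttcCTTTTTgtccgacat
RPS6: tggccCTCTTTTCCgtggcg
RPLP2: gccttCCTTTTCCTCCCTgt
RPL22L1: gcttcCTCTCTgctctcgcg
These lie at chr2:101002284-101002303 (RPL31), chr19:5690290-5690309 (RPL36), chr12:56116628-56116647 (RPL41), chr11:119018329-119018348 on the minus strand (RPS25), chr9:19380222-19380241 on the minus strand (RPS6), chr11:809962-809981 (RPLP2) and chr3:170870181-170870200 on the minus strand (RPL22L1). For 3 of the paralogs the same window held no such run, and they are shown because their changes under shear are set beside those of the other members.
RPS27L: cgagcgcagatcgcttgcag
RPL7L1: gcgccgtagctaggagcgga
RPL26L1: gggtcggcgaacgaaacgcg
Their positions are chr15:63157463-63157482 on the minus strand (RPS27L), chr6:42879611-42879630 (RPL7L1) and chr5:172958724-172958743 (RPL26L1). A missing run says only that these letters are not at the RefSeq start. RPL4 and RPS28, for example, have a run a few bases further on.

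Library totals ranged from 9790999 to 47006272 counts, and most members were deeply covered, with 73, 68, 76 and 73 of them above 1000 counts in every library of hECs, hCECs, rBMECs and hBMEC-like cells. Several human members were nevertheless not measured. RPS18 and RPS9 had 0 to 2 counts over all libraries of a model. RPS9 was listed in 9 further numbered copy rows, which held 213, 154 and 390 counts in hECs, hCECs and hBMEC-like cells, and RPS18 in 5. RPS10, RPL17 and RPL36A had few counts and each is overlapped by a read-through gene (RPS10-NUDT3, RPL17-C18orf32, RPL36A-HNRNPH2), so their values are uncertain. The muscle paralog RPL3L and the testis paralog RPL10L were at or near 0 except in low-shear library 2 of hCECs, with 64 and 18 counts. That library stood apart: it was the shallowest at 9790999 counts and yet detected 36388 genes against 20072 to 20519 in the other 5 hCEC libraries. In high-shear library 1 of rBMECs the sum of 12 endothelial markers was 10537 CPM (counts scaled to a common library size) against 15571 to 20878 in the other 7, and that of 12 epithelial markers 231 CPM against 6.22 to 49.6. Summed endothelial markers (13 genes) reached 14000.1 to 18152 CPM in hECs and hCECs but 76.3 to 103 CPM in hBMEC-like cells, whose 12 epithelial markers (EPCAM, CDH1, keratins and others) summed to 10345 to 14072 CPM, with 1 to 3 endothelial markers at 0. Endothelial markers were thus low in the hBMEC-like cells without being absent, with CDH5 (VE-cadherin) at a mean of 38.0 CPM at low shear. In bulk libraries, fewer cells of a type and less RNA per cell cannot be told apart, and all values below are relative to the other RNAs of a library.

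The share of all counts taken by ribosomal protein genes was lower at high shear in every pair of hBMEC-like cells and rBMECs, and in 2 of 3 pairs of hECs and hCECs. In hBMEC-like cells the share was 4.90%, 5.37% and 5.91% at high shear and 5.93%, 6.23% and 6.77% at low shear in pairs 1 to 3. The groups nearly touched, but each pair fell, to 0.854 ± 0.024 of the low-shear share (mean ± SD, n = 3 pairs). In rBMECs it was 2.22%, 2.30%, 2.48% and 2.12% at high shear and 3.37%, 2.45%, 3.34% and 2.50% at low shear in pairs 1 to 4, a ratio of 0.797 ± 0.123 (n = 4). The fall was large in pairs 1 and 3 and small in pair 2 (0.940). In hECs it was 2.04%, 2.22% and 2.43% at high shear and 2.65%, 2.77% and 2.35% at low shear, so that pairs 1 and 2 fell and pair 3 did not. In hCECs it was 2.96%, 3.33% and 2.98% at high shear and 3.38%, 2.81% and 3.42% at low shear. Pairs 1 and 3 fell to nearly the same ratio (0.874 and 0.871), and pair 2, which holds the library that stood apart, went the other way (1.18).

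**Figure D1:**
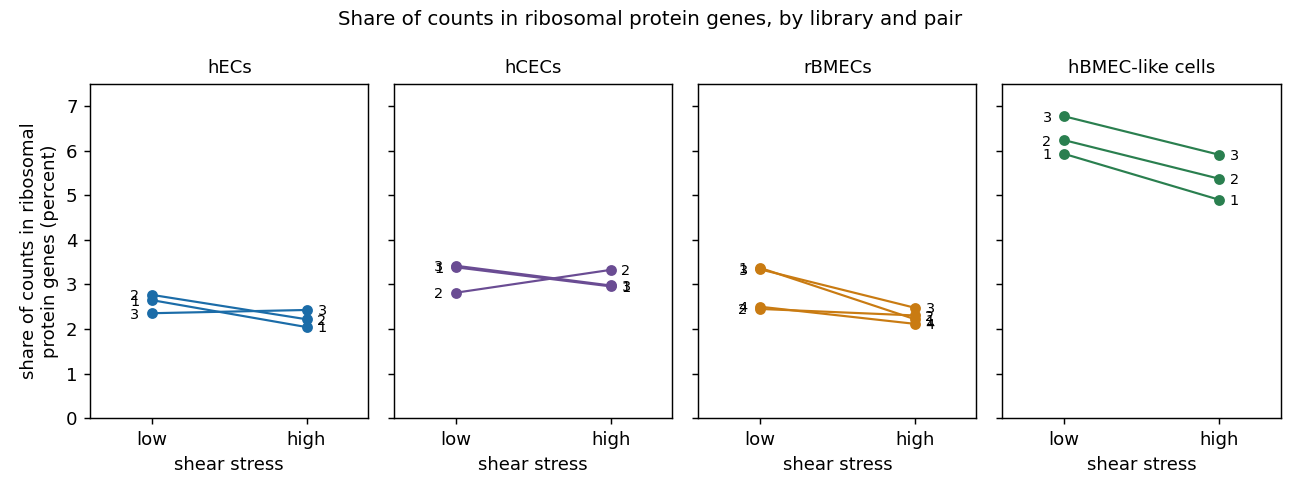
Share of all counts in ribosomal protein genes (percent) in each library, at low and high shear, with a line joining the cultures of a pair and the pair number beside each point. All 3 hBMEC-like pairs and all 4 rBMEC pairs slope down, whereas hEC pair 3 and hCEC pair 2 slope up, and the hBMEC-like libraries (4.90% to 6.77%) lie above all others.

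Which single genes changed with shear is given first for hBMEC-like cells, where most members passed the test. After normalisation by TMM (edgeR's scaling on genes that differ little) and with the pair as a block, 72 of the 78 tested members were lower at high shear at an adjusted p under 0.05 (edgeR quasi-likelihood test, Benjamini-Hochberg over 16452 genes), and 0 were higher. Among all genes, 6.77% were called lower and 8.2% higher. The median log2 fold change of the members was -0.24, against 0.00 for all genes, and the quartiles of the members were -0.28 and -0.18. Both subunits were represented, with 27 of 29 RPS genes (median -0.23) and 45 of 49 RPL genes (median -0.24) called lower. In 75 of 78 the value fell in every pair (23.1% of all genes), and in 42 the high- and low-shear libraries did not overlap (18.7% of all genes).

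RPL36, a protein of the large subunit, had the smallest p-value. It measured 221, 279 and 294 CPM at high shear and 316, 374 and 375 at low shear. The groups did not overlap, and the log2 fold change was -0.43 ± 0.04 (SE; edgeR adjusted p = 4.66e-08). RPL41, which encodes the shortest of the ribosomal proteins, measured 236, 312 and 390.2 CPM at high shear and 384, 423 and 492 at low shear. The third high-shear culture reached the range of the low-shear group, but RPL41 fell in each pair (log2 fold change -0.49 ± 0.05, edgeR adjusted p = 8.16e-08). RPS25 of the small subunit, known to be needed for initiation at some viral internal ribosome entry sites, measured 279, 337 and 401 CPM against 416, 422 and 507 and did not overlap (-0.41 ± 0.04, edgeR adjusted p = 2.36e-07). RPL35A, mutated in some patients with Diamond-Blackfan anaemia, measured 282, 342 and 348 CPM against 372, 416 and 455 (-0.36 ± 0.04, edgeR adjusted p = 3.15e-07). RPS10 had the lowest fold change of all (-0.69 ± 0.19), but at only 2.88 to 5.27 CPM and with the read-through overlap given above.

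The 6 tested members that were not called lower in hBMEC-like cells included 4 paralogs. These were RPL22L1, RPL7L1, RPS27L and RPL39L, and the poorly measured RPL17 was also among the 6. The last of the 6 was a standard gene of the small subunit. Without the pair as a block, 0 of 78 members and 0 of all genes were called lower in this model, although 55 members kept an unadjusted p under 0.05 in that edgeR fit and 76 of 78 stayed below 0. Other genes moved beside them: 7 of the 12 epithelial markers were higher at high shear (summed level 11448 to 14072 CPM against 10345 to 12524, none at 0), as were 4 of 8 tested mural markers, 3 of 7 tested neural and glial markers and 2 of 8 tested endothelial markers, with 1 endothelial marker lower. Of 5 tested pluripotency markers 2 were lower and 1 higher (median log2 fold change -0.02). All 7 genes of that list summed to 551 to 598 CPM against 643 to 699.6, with 0 or 1 of them at 0 in a library. The part of these markers in the result was not tested.

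**Figure D2:**
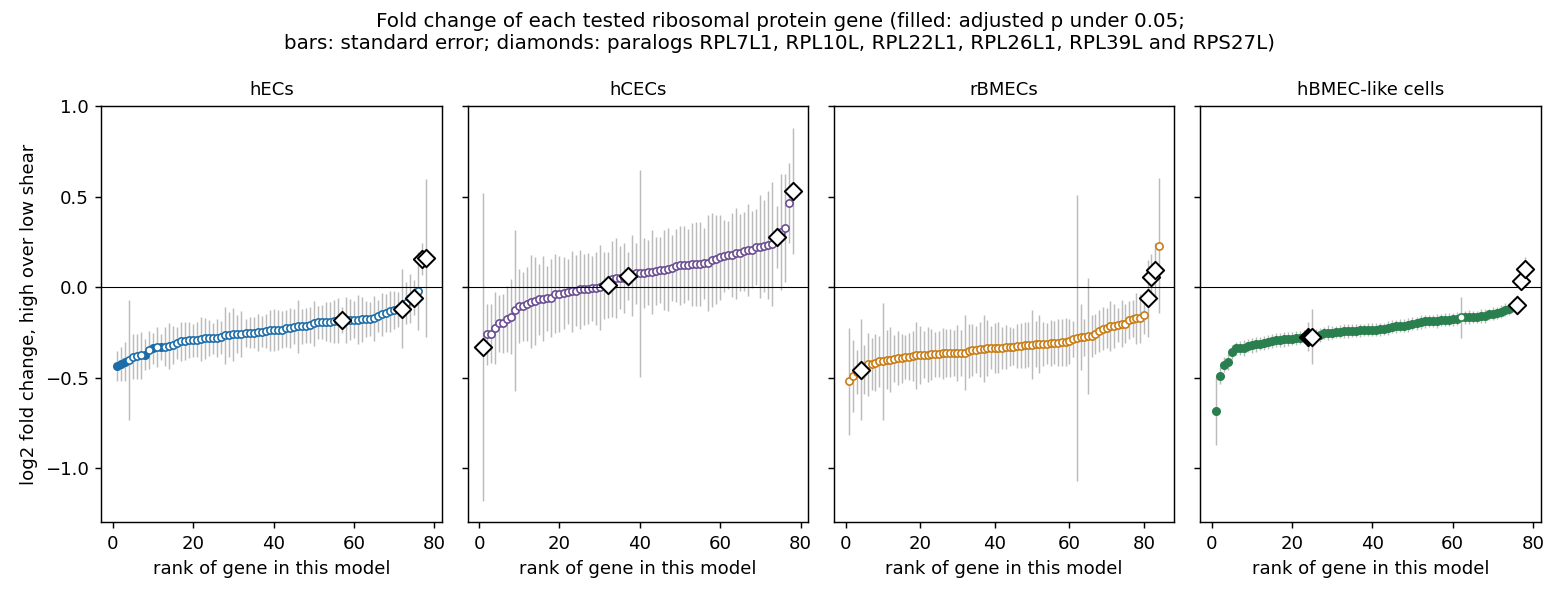
Log2 fold change (high over low shear) of each tested ribosomal protein gene with its standard error, ranked within each model; filled symbols passed an adjusted p of 0.05 and diamonds are paralogs. Nearly all genes of hECs, rBMECs and hBMEC-like cells lie below 0, with 6, 0 and 72 called lower, those of hCECs straddle 0, and in hBMEC-like cells the 3 highest genes are paralogs.

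In hECs nearly all members were below 0, with few calls. Of 78 tested members, 76 were below 0 and the median log2 fold change was -0.24 (all genes 0.00), but 6 were called lower and 0 higher. That share (7.69%) was near the 8.23% of all genes called lower (7.87% were called higher) and is not a result about the members. At an unadjusted p under 0.05 in edgeR, 34 of the 78 were lower and 0 higher. Among all 15488 genes, 2274 were lower and 2263 higher at that limit. In 27 members every pair fell (25.1% of all genes), and in 26 the groups did not overlap (29.1% of all genes).

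The 6 called genes were RPL31, RPL23, RPS6, RPS27A, RPL22 and RPL36. RPL31, near the exit of the peptide tunnel, measured 174, 191 and 215 CPM at high shear and 258, 266 and 257 at low shear. The groups were well apart (log2 fold change -0.44 ± 0.08, edgeR adjusted p = 0.0119). RPL23, which also binds MDM2 and thereby restrains p53 degradation, measured 276, 270.4 and 292 CPM against 401, 397 and 333 (-0.43 ± 0.09, edgeR adjusted p = 0.0211). RPS6, the ribosomal protein phosphorylated downstream of mTORC1, measured 424, 436 and 528 CPM against 625, 648 and 569 (-0.41 ± 0.11, edgeR adjusted p = 0.0415). In all 3 genes the difference was smallest in pair 3. RPS27A, RPL22 and RPL36 had log2 fold changes of -0.37, -0.34 and -0.33, and their groups did not overlap either.

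Pair 3 decided the number of calls in hECs. The median log2 ratio of the members was -0.42 in pair 1, -0.36 in pair 2 and 0.05 in pair 3. Without replicate 3, 64 of 78 members were called lower (7.84% of all genes), without replicate 2 there were 3 (7.81%), and without replicate 1 there were 0 (2.46%, with 4 members at an unadjusted p under 0.05 in edgeR). DESeq2 with the same block called 22 of 78 lower (8.95% of all genes), edgeR without a filter on low counts 27 of 81 (1683 of 25904 genes), and edgeR without the block 3 (3.69%). Epithelial markers (3 of 7 tested lower at high shear, summed level 102 to 173 CPM against 161 to 510.0) and mural markers (4 of 7 tested lower, 403 to 625 CPM against 642 to 754) moved in hECs as well, with 1 to 4 and 1 to 3 of their genes at 0. Of the neural and glial markers, 2 of 4 tested were higher (202 to 254 CPM against 184 to 231, with 1 to 4 at 0). Of 13 endothelial markers 3 were lower and 1 higher. Their sum was 14000.1 to 15968 CPM at high shear against 16998 to 18152, with 0 at 0. The part of these markers in the result was not tested.

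rBMECs gave the lowest median but no call. Of 84 tested members 81 were below 0, with a median log2 fold change of -0.33 against -0.01 for all genes, and 65 fell in all 4 pairs (9.26% of all genes). None passed the adjusted p in edgeR or DESeq2, where 5 and 129 of all 13643 genes were called lower (0.0366% in edgeR, with 0.088% called higher), while 49 of 84 members had an unadjusted p under 0.05 in edgeR, all of them lower (733 of 13643 genes were lower and 547 higher at that limit), and 55 in DESeq2. The groups did not overlap in 11 members (4.35% of all genes).

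Rpl39, a short protein at the wall of the peptide tunnel, had the smallest p-value of the rat members and was chosen after its values were seen. It measured 65.4, 73.8, 83.8 and 82.5 CPM at high shear and 111, 91.2, 130.3 and 92.5 at low shear. The groups did not overlap (log2 fold change -0.47 ± 0.12, edgeR adjusted p = 0.318). Rpsa measured 652, 611, 709.9 and 634 CPM against 929.8, 711, 882 and 781 and did not overlap either (-0.34 ± 0.12, edgeR adjusted p = 0.457). Rplp0 measured 713, 1100.2, 1313 and 911 CPM against 1637, 1255, 1741 and 1028, so that the groups overlapped and the fall was more than 2-fold in pair 1 and smaller in the others (-0.49 ± 0.20, edgeR adjusted p = 0.516). The medians of the pairs were -0.62, -0.08, -0.41 and -0.16, and leaving out replicate 1, whose high-shear library had the low endothelial markers, gave a median over the members of -0.23 with 82 of 84 below 0.

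The rat table also lists genes whose names end in a number after the letter l. Of the 15 rat-only names, those at a level like that of a standard member were Rps9l1 and Rps19l2. No gene named Rps9 or Rps19 is listed in the rat table. Rps9l1 and Rps19l2 may therefore stand for those genes, which was not tested. Rps9l1 averaged 154 CPM at high shear against 188 at low shear and fell in 4 of 4 pairs (log2 fold change -0.28 ± 0.10), and Rps19l2 averaged 364 CPM against 427 (-0.22 ± 0.14), neither past the threshold (edgeR adjusted p = 0.476 and 0.735). The lowest fold change in rBMECs belonged to another such name, Rpl5l1 (-0.52 ± 0.30), at a mean of only 2.24 CPM at low shear. Copies listed beside their standard gene, as Rpl5l1 is beside Rpl5, can share reads with it. Rpl37 had almost no counts in this table, at a mean of 0.862 CPM at low shear.

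In hCECs no direction was found when all pairs were used. None of 78 members was called by edgeR or DESeq2 (1.2% of all genes were called lower and 2.04% higher by edgeR), none had an unadjusted p under 0.05 in edgeR and 2 had in DESeq2, 30 were below 0, and the median was 0.08 (all genes -0.02). Lower in every pair were 3 members, RPS27A, RPS3A and RPS20 (20.7% of all genes), and 4 did not overlap between the groups (23.1% of all genes), both shares below those of all genes. The pairs disagreed. The median log2 ratio of the members was -0.19 in pair 1, 0.58 in pair 2 and -0.17 in pair 3, with 72, 4 and 69 of 78 members lower. RPL31, chosen after its values were seen, shows it: 305, 320.4 and 284 CPM at high shear against 341, 162 and 375 at low shear, where low-shear library 2 was far below the rest. RPS27A was not low in that library, at 426 CPM against 373 and 370.0 in the scaling of this model and 384 against 395 and 390.4 in a joint scaling of the human models.

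Without replicate 2 the hCEC values moved below 0. The median became -0.18, 72 of 78 members were below 0, and 14 were called lower by edgeR (6.66% of all genes) and 6 by DESeq2. Leaving out low-shear library 2 alone, in a fit without pairs, gave a median of -0.13 and 1 call. With 3 pairs, the part of that 1 library in the hCEC values cannot be told apart from variation between differentiations.

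**Figure D3:**
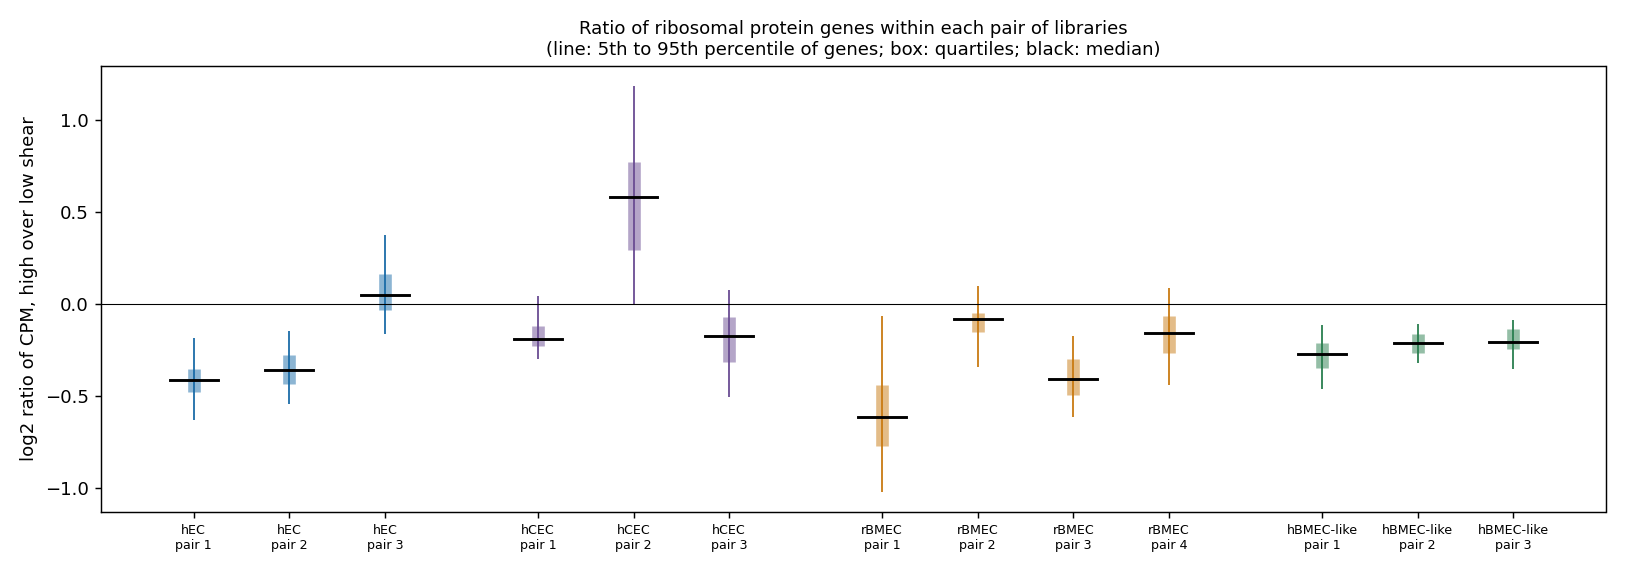
Log2 ratio of CPM (high over low shear) of the ribosomal protein genes within each pair of cultures, as the median (black), the quartiles (box) and the 5th to 95th percentile of genes (line). Medians lie between -0.27 and -0.21 in all 3 hBMEC-like pairs, range from -0.62 to -0.08 in rBMECs, and are above 0 in hEC pair 3 (0.05) and hCEC pair 2 (0.58).

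Genes with named roles outside or within the ribosome were followed across the models. The stalk proteins RPLP0, RPLP1 and RPLP2, which recruit elongation factors to the large subunit, had log2 fold changes of -0.16 ± 0.03, -0.23 ± 0.04 and -0.24 ± 0.04 in hBMEC-like cells, all called lower by edgeR. In hECs the values of RPLP0, RPLP1 and RPLP2 were -0.24 ± 0.11, -0.22 ± 0.10 and -0.24 ± 0.09 and none passed (edgeR adjusted p = 0.222, 0.195 and 0.136). RPL5 and RPL11, which bind 5S ribosomal RNA and, when assembly fails, MDM2, measured 980.3, 1165 and 1301 CPM and 575, 634 and 665 CPM at high shear in hBMEC-like cells against 1196, 1275 and 1415 and 727, 744 and 786 at low shear. RPL11 did not overlap between the groups and RPL5 did, and both were called lower (-0.27 ± 0.04 and -0.18 ± 0.04, edgeR adjusted p = 8.44e-06 and 0.00124). In hECs RPL5 and RPL11 did not overlap between the groups either, at -0.28 ± 0.09 and -0.29 ± 0.09, but missed the threshold (edgeR adjusted p = 0.0694 and 0.0716).

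RPS6 measured 1344, 1531 and 1730.2 CPM at high shear and 1653, 1814 and 1949 at low shear in hBMEC-like cells, and was called lower (-0.24 ± 0.03, edgeR adjusted p = 2.02e-05). In hCECs it was -0.23 ± 0.20 and in rBMECs Rps6 was -0.41 ± 0.14, neither past the threshold (edgeR adjusted p = 0.674 and 0.430). RPS27A, made as a fusion with ubiquitin, was the only 1 of these named genes to be lower in each pair of each model: -0.37 ± 0.09 in hECs, -0.26 ± 0.16 in hCECs, -0.27 ± 0.04 in hBMEC-like cells and, as Rps27a, -0.31 ± 0.11 in rBMECs. It was called in hECs and hBMEC-like cells (edgeR adjusted p = 0.0282 and 3.70e-05) and not in hCECs and rBMECs (0.559 and 0.473). RPSA, a small-subunit protein also described as a laminin receptor, was called lower in hBMEC-like cells (-0.14 ± 0.03, edgeR adjusted p = 0.00478) and overlapped between the groups of hECs (-0.20 ± 0.13, edgeR adjusted p = 0.350).

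The paralogs, which replace or duplicate a standard protein, gave mixed values. RPL22L1, a paralog of RPL22, measured 37.2, 41.7 and 33.8 CPM at high shear and 35.4, 36.9 and 32.4 at low shear in hBMEC-like cells, slightly higher in each pair (log2 fold change 0.10 ± 0.07, edgeR adjusted p = 0.335). In hCECs RPL22L1 was 7.86, 8.62 and 7.77 CPM against 4.98, 5.27 and 6.60, with no overlap and the highest fold change of all members (0.53 ± 0.35, edgeR adjusted p = 0.571). In rBMECs Rpl22l1 leaned the other way, at 21.3, 17.3, 21.1 and 14.6 CPM against 36.4, 10.7, 32.2 and 30.7 (-0.46 ± 0.28, edgeR adjusted p = 0.720). RPL22L1 starts with a pyrimidine run, as do most members that were called lower.

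RPL7L1, whose yeast relative Rlp7 acts in assembly of the large subunit, measured 209, 214 and 216 CPM against 206, 214 and 204 in hBMEC-like cells (0.03 ± 0.04, edgeR adjusted p = 0.649) and 123, 117 and 131 CPM against 141, 143 and 138 in hECs (-0.18 ± 0.07, edgeR adjusted p = 0.139). The groups were on top of each other in the first and apart in the second. RPS27L, a p53 target in human cells, measured 79.0, 70.5 and 114 CPM against 77.0, 67.8 and 88.0 in hECs, higher at high shear in each pair (0.16 ± 0.09, edgeR adjusted p = 0.293), and 56.9, 65.9 and 53.7 CPM against 65.2, 65.1 and 58.0 in hBMEC-like cells (-0.10 ± 0.06, edgeR adjusted p = 0.277). In hCECs RPS27L was also higher in each pair (0.28 ± 0.17, edgeR adjusted p = 0.549). RPL26L1, which lacked a pyrimidine run at its start as well, was nevertheless called lower in hBMEC-like cells, at 19.8, 19.6 and 20.6 CPM against 23.7, 24.5 and 24.4 (-0.27 ± 0.08, edgeR adjusted p = 0.0188). The call of RPL26L1 was lost in DESeq2, with the correction for length and whenever 1 replicate was left out.

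Grouped by the start sequence, the tested members with a run had medians of -0.25 in both hECs and hBMEC-like cells (40 genes, log2 fold changes from -0.44 to -0.09 and from -0.69 to 0.10), and 39 of the 40 were called lower in hBMEC-like cells. The 23 tested members whose RefSeq start had no run had medians of -0.19 in both models, and 20 of them were called lower in hBMEC-like cells. The fold changes without a run went from -0.37 to 0.16 in hECs and from -0.34 to 0.03 in hBMEC-like cells, so the ranges of the groups overlapped. In hCECs the medians were 0.08 with a run and 0.05 without, with 0 calls in either group.

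Whether the models differed was tested as an interaction of shear and model. None of 78 members was called in any of the 6 contrasts between models in edgeR or DESeq2. Members with an unadjusted p under 0.05 numbered 2 in hCECs against hECs, 13 in rBMECs against hCECs and 0 in the other 4 contrasts by edgeR. Among all genes, 0.882% were called higher and 0.994% lower in hCECs against hECs, 1.98% and 1.21% in hBMEC-like cells against hECs, and 3.15% and 1.24% in hBMEC-like cells against hCECs. In rBMECs the shares were 2.24% and 2.44% against hECs, 3% and 1.9% against hCECs, and 0.0354% and 0.0354% against hBMEC-like cells. The median difference of the members in log2 fold change was 0.38 between hCECs and hECs, -0.36 between hBMEC-like cells and hCECs and -0.38 between rBMECs and hCECs, and without hCEC replicate 2 these became 0.05, -0.04 and -0.14. Between hBMEC-like cells and hECs it was 0.02. For single genes the errors were wide: RPL36 differed by -0.09 ± 0.27 between hBMEC-like cells and hECs and by -0.54 ± 0.28 between hBMEC-like cells and hCECs (edgeR adjusted p = 0.340 for the second). The 72 calls in hBMEC-like cells and the 0 calls in rBMECs and hCECs therefore do not show a difference between models. The contrasts of a model share its libraries, and in rBMECs species and model cannot be told apart.

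Ribosomal protein genes are short, and short genes as a whole also moved. The median exon length of the members was 1136 bases in the human tables against 4070 to 4164 for all tested genes, and 661 against 3367 in the rat table. In hBMEC-like cells the other genes under 1000 bases had a median log2 fold change of -0.13 (880 genes), rising from class to class to 0.04 in the longest. The 33 members under 1000 bases had -0.25, and the 8 members with an exon length over 4 kilobases had -0.19. In hECs the other short genes had -0.04 and the members in the class -0.26, and in rBMECs -0.10 and -0.34. The members were therefore below the other genes of their length in these models in every class holding more than 1 of them. In hCECs the other short genes had -0.09 and the members 0.09.

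A smooth trend on the deposited exon length was estimated for each library over all other genes. With it removed, the median of the members became -0.14 in hBMEC-like cells, with 52 of 78 called lower. RPLP0, RPLP2, RPL5 and RPSA were among those no longer called, whereas RPL36, RPL41, RPS25, RPL35A, RPS6, RPL11 and RPS27A kept their call. With the same correction the median was -0.22 in hECs (7 called lower) and -0.22 in rBMECs, where 80 of 84 were still below 0 but 8 rather than 49 had an unadjusted p under 0.05. Scaling had little effect in these 3 models. With the size factors of DESeq2, library totals alone, the upper quartile or TMM factors computed without the ribosomal protein genes, the median stayed between -0.25 and -0.21 in hECs and hBMEC-like cells and between -0.35 and -0.32 in rBMECs. In hCECs library totals alone and the upper quartile turned the median to -0.04 and -0.01, as all genes then shifted to -0.13 and -0.11.

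**Figure D4:**
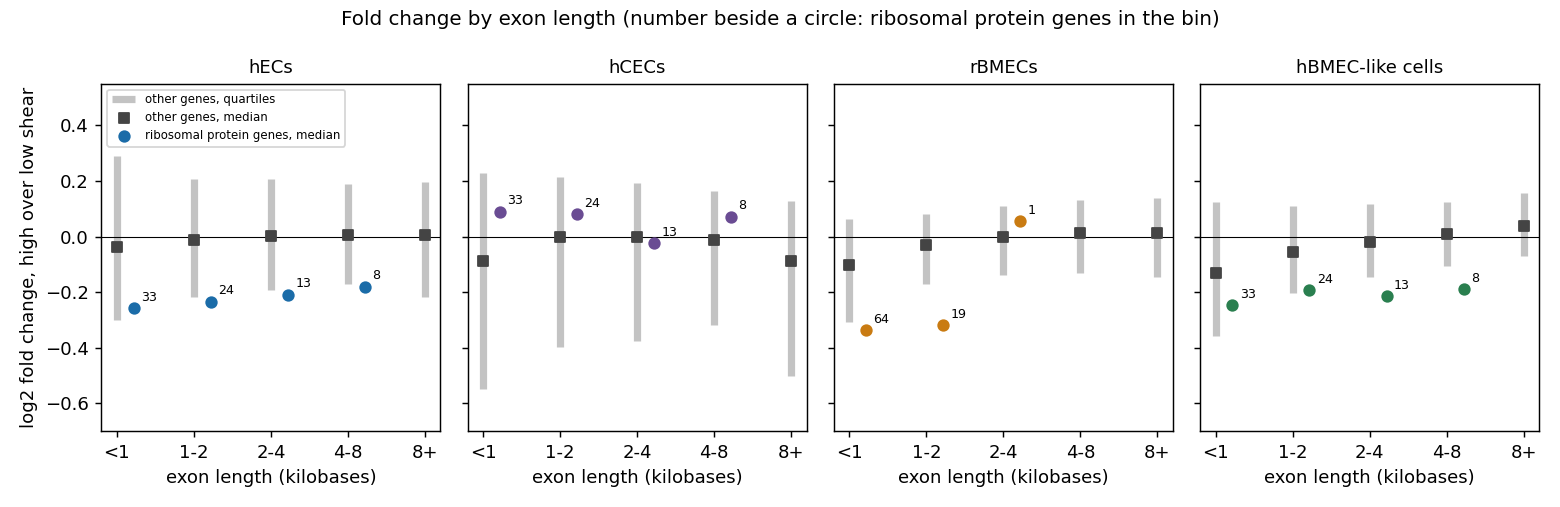
Median log2 fold change (high over low shear) by exon length class in kilobases for all other genes (squares, grey bars from the first to the third quartile) and for ribosomal protein genes (circles, with their number in the class). In hBMEC-like cells the other genes rise from -0.13 in the shortest class to 0.04 in the longest, and the ribosomal protein genes lie below them in each class that holds any.

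Levels were also compared between the human models at low shear, in a joint fit of their libraries. In hBMEC-like cells 73 of 78 members were higher than in hECs and 0 lower (edgeR adjusted p under 0.05), where 27.2% of all genes were called higher and 28.1% lower, with a median log2 ratio of 1.02 (2.02-fold) against 0.03 for all genes. Against hCECs 72 were higher and 0 lower (23% and 31.9% of all genes), with a median of 0.81 against -0.28. RPL22L1 measured 32.5, 33.8 and 30.1 CPM in hBMEC-like cells, 7.03, 8.14 and 9.42 in hECs and 5.28, 4.75 and 6.97 in hCECs. hBMEC-like cells were far above both (log2 ratio to hECs 1.97 ± 0.25, edgeR adjusted p = 6.42e-06). RPL39L, a paralog of RPL39 best known from the testis, measured 5.61, 5.77 and 5.83 CPM in hBMEC-like cells and 1.2, 0.996 and 0.743 in hECs (2.55 ± 0.51, edgeR adjusted p = 0.000577). RPSA measured 1522, 1609 and 1808 CPM against 493, 536 and 415 (1.77 ± 0.17, edgeR adjusted p = 3.80e-07). RPS27L went the other way, at 60.0, 59.7 and 53.8 CPM against 81.1, 70.3 and 91.8, but did not pass (-0.49 ± 0.27, edgeR adjusted p = 0.142).

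Between hCECs and hECs 1 member, RPS27A, was called higher, at 395, 384 and 390.4 CPM against 279, 282 and 237 (log2 ratio 0.55 ± 0.10, edgeR adjusted p = 0.00332, 5.85% of all genes called higher and 5.71% lower). That count rested on replicate 2 of hCECs, which holds the library that stood apart: without it 59 of 79 members were called higher (1653 of all 18861 genes in that fit), at a median of 0.42 (all genes -0.01) rather than 0.23 (all genes 0.12). It also moved with the scaling, to 30 with library totals alone and 17 in DESeq2. Per kilobase of transcript, RPS2, RPL13A and RPLP0 were among the 4 highest members of each human model, at 2440 ± 139, 1967 ± 162 and 1929 ± 192 CPM per kilobase in hBMEC-like cells and 853 ± 125, 779 ± 91.2 and 758 ± 104 in hECs (mean ± SD, n = 3, low shear). RPLP0 and RPL13A did not differ beyond their spread in either model. RPL39L was the lowest of the 78 tested members in hECs and hCECs, at 1.34 ± 0.314 and 1.66 ± 1.43 CPM per kilobase.

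**Figure D5:**
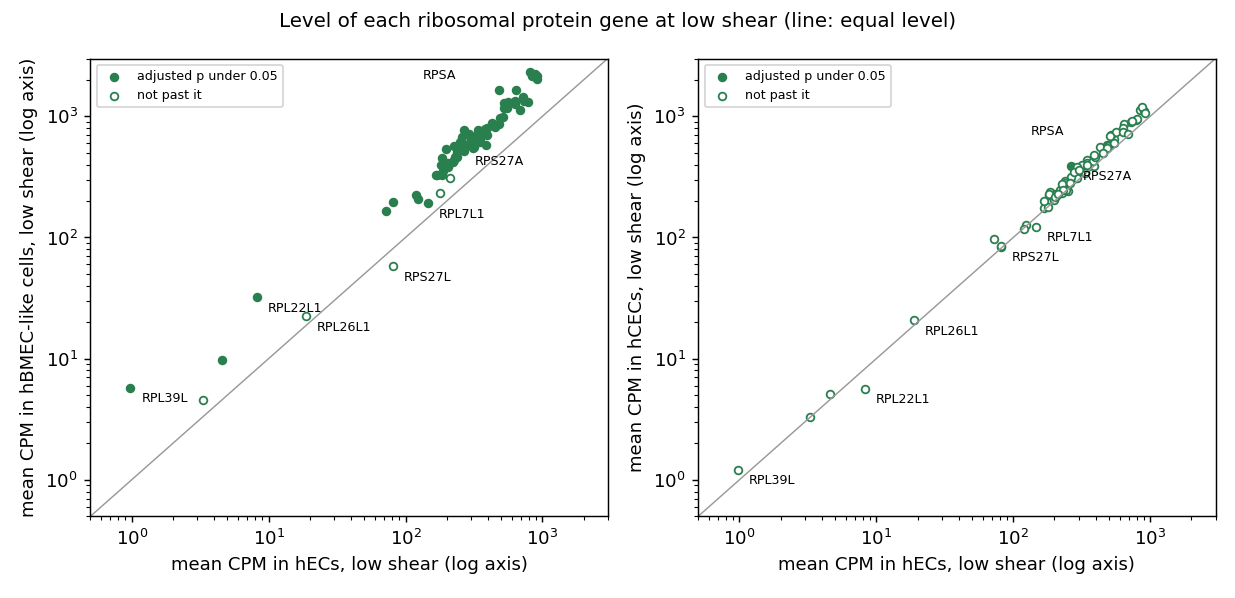
Mean CPM of each ribosomal protein gene at low shear (log axes, n = 3 libraries each) in hBMEC-like cells (left) and hCECs (right) against hECs, with the line of equal level; filled points passed an adjusted p of 0.05. In the left panel 73 of 78 genes are called and lie above the line, and in the right panel only RPS27A is called.

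Other genes of the translation machinery were taken as whole lists, whose counts in hBMEC-like cells stand against 6.77% of all genes called lower and 8.2% called higher. A list of 4 genes held parts of the ribosome, or genes made with them, whose symbols fall outside the rule. Of these 3 were lower at high shear in hBMEC-like cells (for RPL36AL 67.1 ± 5.80 against 77.3 ± 1.93 CPM, log2 fold change -0.21 ± 0.05, edgeR adjusted p = 0.00701), and 0 of 4 were called in the other models. Of 50 ribosome assembly factors, 10 were lower in hBMEC-like cells (median -0.05), among them the nucleolar methyltransferase FBL (190.5 ± 17.4 against 223 ± 9.36 CPM, -0.23 ± 0.04, edgeR adjusted p = 0.000347) and NHP2 of the H/ACA particle (-0.29 ± 0.06, edgeR adjusted p = 0.00129). In hECs, where 8.23% of all genes were called lower, 3 of the 50 were lower (median -0.13), a share near that of all genes, with GAR1 first (-0.49 ± 0.10, edgeR adjusted p = 0.0143), and in hCECs and rBMECs 0.

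Of 16 elongation factors and other mRNAs listed for a TOP tract, 8 were lower and 1 higher in hBMEC-like cells (median -0.10). RefSeq starts were at hand for 9 of the 16, and 6 of these began with a run as defined above. HNRNPA1, a splicing factor, was 2232 ± 241 CPM at high shear against 2830.4 ± 187 (-0.35 ± 0.04, edgeR adjusted p = 3.02e-07), and the exception VIM, the intermediate filament vimentin, was 225 ± 33.9 against 176 ± 13.6 (0.35 ± 0.04, edgeR adjusted p = 2.43e-06). In hECs the elongation factor subunit EEF1B2 was the 1 called gene of this list (127 ± 7.37 against 174 ± 14.9 CPM, -0.45 ± 0.09, edgeR adjusted p = 0.0151), at a list median of -0.16, and in rBMECs the median was -0.18 with 0 calls. Of 27 tested initiation factors 5 were lower and 1 higher in hBMEC-like cells and 0 in the other models. Of 20 cytosolic aminoacyl-tRNA synthetases, which charge tRNAs with amino acids, 4 were higher (WARS 0.22 ± 0.05, edgeR adjusted p = 0.00228) and 2 lower (QARS -0.16 ± 0.04, edgeR adjusted p = 0.00472) in hBMEC-like cells, at a list median of 0.08. Of 14 genes of RNA polymerase I and its factors, which transcribe ribosomal RNA, 2 were lower there (UBTF -0.20 ± 0.04 and POLR1E -0.25 ± 0.07, edgeR adjusted p = 0.00226 and 0.0105). In hECs 1 gene of each list was lower, and in hCECs and rBMECs 0.

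Regulators upstream of ribosome production gave mixed directions. Of 28 genes of mTORC1 and MYC regulation, 5 were higher and 3 lower in hECs (7.87% and 8.23% of all genes). DDIT4, an inhibitor of mTORC1, was higher in hECs (278 ± 64.0 against 98.3 ± 8.77 CPM, 1.48 ± 0.09, edgeR adjusted p = 0.000170) and in hCECs (333 ± 47.6 against 77.8 ± 18.4 CPM, 2.11 ± 0.19, edgeR adjusted p = 0.000784). In hBMEC-like cells DDIT4 was not called. SESN3, another inhibitor of mTORC1, was lower in hECs (-0.80 ± 0.09) and higher in hBMEC-like cells (0.42 ± 0.05), both past the edgeR threshold (adjusted p = 0.00114 and 2.24e-06). Beyond the cytosol, 13 of 77 mitochondrial ribosomal protein genes and 27 of 77 nuclear genes of the respiratory chain were lower in hBMEC-like cells and 0 were higher (medians -0.10 and -0.14). These lists too are short, with median exon lengths of 1676 and 1317 bases, and in hBMEC-like cells the other genes in the length class that holds both values had a median of -0.05.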

How the data were processed

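The authors deposited raw counts per gene for each of the 26 libraries. Per the study's methods they aligned paired-end reads of polyadenylated RNA with STAR and counted them with featureCounts, on hg38 for human cells and on a rat build for rBMECs although the labels list hg38 throughout. Strandedness of counting is not given in the sources used here. Here, genes passed edgeR's filterByExpr (minimum count 10, total 15) and were tested with edgeR 4.0.16 (quasi-likelihood, TMM, replicate block, R 4.3.3), with p-values adjusted over all genes and a threshold of 0.05. Pairs come from the study's paired design. Deviations from the group mean correlated best with the partner of the same number in 11 of 13 pairs. The exceptions were hCEC pair 2 (r = 0.05, against 0.07 with another number) and rBMEC pair 4 (0.10 against 0.33). DESeq2 1.42.0, other scalings, no filter, no block, a length correction (lowess of log2 deviations on exon length, span 0.3, as an offset) and leaving out replicates were alternatives. Models were compared in joint edgeR fits, with rBMECs over 16513 symbols shared with the human tables. Human transcript lengths came from GENCODE 44. The statistics were tested on simulated data. Named genes were the paralogs, the stalk genes, RPL5, RPL11, RPS6, RPSA and RPS27A, with the called members of largest change (at least 5 CPM, same direction in each pair) and smallest p, and up to 2 called genes per other list. Genes and lists were chosen with earlier results of these data known. Promoter sequences are RefSeq's. Some genes named by these rules are not reported here.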

Additional observations from a re-analysis of the deposited data

Results flagged for a closer look

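In the 4 high-shear libraries of rBMECs, 1 value each of Rps27a and Rps6 lay far from the other 3. Rps27a measured 311 CPM in replicate 2 against 351 to 359, and Rps6 measured 587 CPM in replicate 3 against 463 to 481. Of 26 groups of 4 libraries examined, 2 were this far apart by Dixon's criterion, which chance alone passes in about 1 of 20 groups. Both genes were lower at high shear in 4 of 4 pairs.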

How the results depend on the processing

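The direction of the members' median was kept in hECs, rBMECs and hBMEC-like cells under each alternative run. The count lower at high shear in hECs (6) became 27 without the filter on low counts, 22 in DESeq2, and 63 in DESeq2 without replicate 3, and ranged from 0 to 64 when 1 replicate was left out. Without the replicate block it was 3 in hECs and 0 in hBMEC-like cells (72 with the block), and the block changed the count in no other model. Length correction moved the hBMEC-like median to -0.14, and canonical transcript length moved the short-gene median there to -0.11. In hCECs the count (0) was 1 with library totals alone and 1 without low-shear library 2, ranged from 0 to 14 over left-out replicates, and without replicate 2 was 20 with length correction and 6 in DESeq2. The settings combining a tool or correction with a left-out replicate were chosen after seeing the data. Over left-out replicates the median difference in response ranged from 0.052 to 0.56 (hCECs against hECs), -0.57 to -0.042 (hBMEC-like cells against hCECs) and -0.53 to -0.14 (rBMECs against hCECs, with 0 to 1 member called in each direction). For levels, hCECs against hECs (1 higher) gave 4 higher and 1 lower with DESeq2's size factors in edgeR, 30 higher with library totals alone, 0 without the filter, and 17 higher and 1 lower in DESeq2. Left-out replicates gave 1 to 59 higher, 0 to 1 lower and medians of 0.053 to 0.42. The level median of hBMEC-like cells against hECs was 1.22 with library totals alone, and against hCECs 0.59 to 0.97 over left-out replicates, with 0 to 1 member lower in both. The causes were not tested. Of 1365 values for single genes, 1226 were called in the same direction as before or were again not called, 128 lost the call and 11 gained one. For genes not called in either fit the direction was not compared. With 3 or 4 pairs, and 9790999 counts in the shallowest library, members of few counts (RPS10, RPL17, RPL39L) were poorly resolved. Canonical transcript length was not run for the rat, nor the share without mitochondrially encoded genes in the human tables.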
